A study of Mus musculus with 11 samples.

Results

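The genes described here are 7 genes of arginine and nitric oxide metabolism, taken by name out of the 19444 genes of a single-cell RNA table from the stellate ganglion of mice, a sympathetic ganglion of the lower neck. They are Ass1, Asl, Slc7a1, Arg2, Nos1, Ddah1 and Ddah2, and all 7 were present in the table. They were selected on their levels across the clusters and the divisions of clusters 3 and 4 in these same cells. Their levels, differences and model calls are therefore given as a description, with no p-values, and nothing is read from them as a test. The ganglia came from 6 male C57BL/6J mice of 6 to 8 weeks. All mice carried the retrograde tracers CTB-488, injected in the forelimb, and CTB-555, injected in the interscapular brown adipose tissue, for 3 days, and no untreated mice were compared. Each of the 3 sets pools the ganglia of 2 mice and counts as 1 replicate (n = 3), and sorted cells filled 11 plates. Tracer labels of the cells were not used here.

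The table holds 878 cells in the authors' 4 numbered clusters, with 388 cells in cluster 1, 335 in cluster 2, 101 in cluster 3 and 54 in cluster 4. The clusters carry no cell type names. Cells had a median of 32923.5 counts, and a plate held 2050165 to 3373157 counts. The 4 noradrenergic markers Th, Dbh, Slc18a2 and Slc6a2 summed to 87.0 to 102 counts per 10000 in the sets of cluster 1 and 109 to 126 in those of cluster 2. In cluster 4 they summed to 28.3 to 42.3, while the 4 cholinergic markers Slc18a3, Slc5a7, Chat and Vip summed to 58.2 to 64.6 there and to at most 0.391 in clusters 1 and 2. Cluster 3 was divided at 10000 counts per cell into 48 high-count cells (median 68058 counts) and 53 low-count cells (median 2658). The cells nearest the division had 9804 and 18608 counts. Cluster 4 was divided at 1 count per 10000 of the neuropeptide gene Sst into 16 Sst-positive and 38 Sst-negative cells, and the nearest cells on either side had 0.855 and 1.11. The same 96 well barcodes were used on more than 1 plate, and each plate is a library of its own.

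Arginine can be made from citrulline by argininosuccinate synthase (Ass1) and argininosuccinate lyase (Asl), or taken up by cationic amino acid transporters such as Slc7a1. Arginases split it into ornithine and urea, and nitric oxide synthases turn it into nitric oxide and citrulline, which Ass1 and Asl can recycle. Dimethylarginine dimethylaminohydrolases (Ddah1 and Ddah2) break down asymmetric dimethylarginine, an inhibitor of nitric oxide synthases that is released from methylated proteins. In sympathetic pathways the neuronal synthase Nos1 is best known from preganglionic neurons.

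Ass1 (2:31470207-31520672, plus strand) and Ddah1 (3:145758675-145894277, plus strand) were the members that stood highest in cluster 4 against clusters 1 and 2, so the bases before their start sites are shown. Positions of genes are from GENCODE M21 on GRCm38. The sequences are from RefSeq on GRCm38.p6, at chr2:31470020-31470206 and chr3:145758442-145758674 on the plus strand, and end where the GENCODE gene begins. In these printed stretches no searched motif was found, so all letters are in lower case.
Ass1: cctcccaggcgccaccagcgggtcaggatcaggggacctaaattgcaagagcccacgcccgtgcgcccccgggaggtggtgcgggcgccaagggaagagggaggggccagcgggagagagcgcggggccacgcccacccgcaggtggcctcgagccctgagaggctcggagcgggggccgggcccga
Ddah1: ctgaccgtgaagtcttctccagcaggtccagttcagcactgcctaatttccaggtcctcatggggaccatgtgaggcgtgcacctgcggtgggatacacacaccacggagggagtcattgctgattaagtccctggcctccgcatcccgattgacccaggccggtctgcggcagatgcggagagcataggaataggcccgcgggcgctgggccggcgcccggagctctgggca
Searched on both strands were the GC box with the letters GGGCGG, the E-box with the letters CACGTG, the TATA box with the letters TATAAA, the CCAAT box and the cAMP response element with the letters TGACGTCA. RefSeq places the start of Ass1 63 bases beyond the GENCODE start, and in that interval lie 1 GGGCGG and 1 CACGTG, beginning 63 and 36 bases before the RefSeq start and not overlapping. GGGCGG occurred in 32.7% and CACGTG in 6.02% of the 32851 RefSeq promoters, each taken as 250 bases before the start. Ddah1 held none of the 5 motifs in its 250 bases. The GC content of the 250 bases was 75.6% for Ass1 and 64% for Ddah1, against a median of 52.4% over all promoters.

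Ass1 was highest in cluster 4. It had 5.65, 6.08 and 7.77 counts per 10000 in Sets 1, 2 and 3 (6.50 ± 1.12, SD, n = 3). The sets of cluster 1 had 0.351, 0.389 and 0.630, and those of cluster 2 had 0.591, 0.530 and 0.720. In high-count cells of cluster 3 it was 0.828, 0.949 and 1.31. Every set of cluster 4 was thus above every set of the other neurons, 12.3-fold to 16.1-fold over cluster 1 of the same set and 9.57-fold to 11.5-fold over cluster 2. High-count cluster 3 came next and lay above every set of cluster 2, while the sets of clusters 1 and 2 overlapped. In low-count cluster 3 there were only 4 Ass1 reads in 53 cells.

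The lower level in clusters 1 and 2 was spread over many cells. With each cell thinned to 15000 counts, Ass1 had a read in 42.5% of 367 cells of cluster 1 (95% Clopper-Pearson interval 37.4 to 47.7%) and in 58.2% of 323 cells of cluster 2 (52.6 to 63.6%). In cluster 4 it was 96.2% of 53 cells (87.0 to 99.5%). Without thinning the shares were 56.7%, 84.2% and 98.1%, at median depths of 28396, 40121 and 35488.5 counts. Vip, a neuropeptide gene and one of the cholinergic markers, is given beside it, since cDNA was pooled within a plate and 2 to 10 cells of cluster 4 sat on each of the 11 plates. Vip had a read in 23.2% of the thinned cells of cluster 1 and 19.2% of those of cluster 2. There were 0.127 Ass1 reads per Vip read in cluster 4, 2.24 in cluster 1, 3.18 in cluster 2, 7.33 in high-count cluster 3 and 0.0784 in low-count cluster 3, the last on 4 Ass1 and 51 Vip reads. Intervals cover counting error only.

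Asl, the next enzyme of the pathway (5:130011258-130029247, minus strand), was lowest of these neurons in cluster 4, where Ass1 was highest. It was 0.811, 0.678 and 0.734 counts per 10000 in the sets of cluster 4 (0.741 ± 0.0665, SD, n = 3). In cluster 1 it was 3.03, 2.77 and 3.69, in cluster 2 it was 3.37, 3.13 and 4.13, and in high-count cluster 3 it was 3.17, 2.72 and 3.17. The sets of these 3 classes overlapped, and all of them were above all sets of cluster 4, whose mean was 4.27-fold lower than that of cluster 1 and 4.78-fold lower than that of cluster 2. After thinning, 67.9% of cluster 4 cells had an Asl read (53.7 to 80.1%), against 97.5% in cluster 1 and 99.7% in cluster 2. Low-count cluster 3 held 6 Asl reads. Over the 12 means of 3 sets by 4 classes (clusters 1, 2 and 4 and high-count cluster 3), log levels of Ass1 and Asl had a Pearson r of -0.94, and those of Ass1 and Ddah1 one of 0.66. These points share cells of the same sets and mostly separate cluster 4 from the others.

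**Figure D1:**
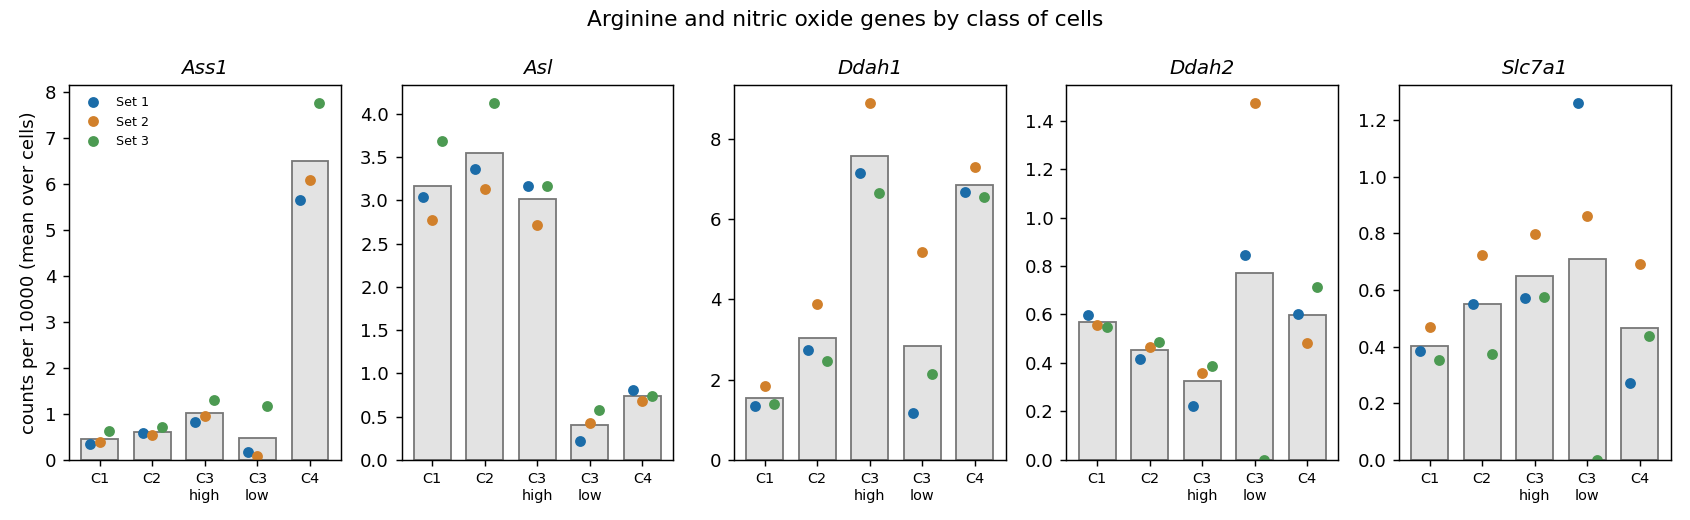
Mean counts per 10000 of 5 member genes (y axis, linear, a scale of its own in each panel) in clusters 1 and 2, the high-count and low-count cells of cluster 3, and cluster 4. Points are the 3 sets and bars their mean; Ass1 stands highest and Asl low in cluster 4, and Ddah1 is high in both cluster 4 and high-count cluster 3.

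Slc7a1, the arginine transporter CAT-1 (5:148327410-148399904, minus strand), showed no such order. Its set levels ran from 0.351 to 0.468 counts per 10000 in cluster 1, from 0.375 to 0.723 in cluster 2, from 0.570 to 0.798 in high-count cluster 3 and from 0.273 to 0.691 in cluster 4. Neighbouring classes overlapped throughout, and high-count cluster 3 was above all sets of cluster 1 only. Set 2 was the highest set in each of these 4 classes.

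Reads of the 2 members that use arginine were close to 0. Arg2, the mitochondrial arginase (12:79130777-79156301, plus strand), had 7 reads in cluster 1, 10 in cluster 2, 1 in high-count and 0 in low-count cluster 3 and 3 in cluster 4, each in a different cell. Its exons overlap those of Vti1b on the other strand, and the sources used here do not give whether counting used strand. Nos1, the neuronal nitric oxide synthase (5:117781032-117958840, plus strand), had 4 reads in 4 cells of cluster 1 and 10 reads in 9 cells of cluster 2. High-count cluster 3 held 17 Nos1 reads in 5 of 48 cells, with up to 6 reads in a cell, at 0, 0.0307 and 0.111 counts per 10000 in Sets 1, 2 and 3. Only Sets 2 and 3 contributed, so the sets overlapped with those of clusters 1 and 2. In cluster 4 no Nos1 read was seen among 2023367 counts, which allows a level of up to 0.0148 counts per 10000. Neither gene reached the minimum mean of 0.05 counts per 10000 in the main fits and neither was tested there, which leaves 5 of the 7 members. Without that filter 6 or 7 members were tested, and 6 when cells of cluster 3 were thinned to 1000 counts.

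Ddah1 (positions above) was lowest in cluster 1, higher in cluster 2 and highest in high-count cluster 3 and cluster 4. It had 1.35, 1.85 and 1.399 counts per 10000 in the sets of cluster 1 and 2.74, 3.89 and 2.48 in those of cluster 2. High-count cluster 3 had 7.17, 8.91 and 6.66, and cluster 4 had 6.69, 7.31 and 6.55. The sets of cluster 1 were below those of cluster 2, and these were below both remaining classes, which overlapped with each other. The ratio of means was 1.98 for cluster 2 over cluster 1, 2.495 for high-count cluster 3 over cluster 2 and 2.26 for cluster 4 over cluster 2. Of the thinned cells, 72.2% had a Ddah1 read in cluster 1, 94.1% in cluster 2, 98.1% in cluster 4 and 100% of 48 in high-count cluster 3. Low-count cluster 3 had 61 reads in 32 of 53 cells, at 1.18, 5.19 and 2.15 counts per 10000, which overlapped with clusters 1 and 2.

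Ddah2 (17:35059035-35062095, plus strand), the other enzyme of the pair, did not follow Ddah1. Its sets ran from 0.548 to 0.598 counts per 10000 in cluster 1, from 0.414 to 0.487 in cluster 2 and from 0.223 to 0.389 in high-count cluster 3. In cluster 4 they ran from 0.482 to 0.715, which overlapped with cluster 1. Its order among clusters 1 and 2 and high-count cluster 3 was thus the reverse of that of Ddah1, without overlap between neighbours.

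Log2 differences from limma, fitted over all genes on the mean of log2(1 + counts per 10000) with the set as a block, summarise these levels. They understate changes of low genes. Of the 5 members in the fit, 2 were past the threshold (adjusted p under 0.05) as higher in cluster 4 than in the mean of clusters 1 and 2, and 1 as lower, where 24.7% of all 10564 genes were past it (12.4% higher and 12.3% lower). Their differences were 2.08 (SE 0.0602) for Ass1, 1.43 (SE 0.0599) for Ddah1 and -1.30 (SE 0.0526) for Asl, each with the same sign in 3 of 3 sets. Ddah2 was at 0.10 and Slc7a1 at -0.01, neither past it. The median of the 5 was 0.10, against -0.00 over all genes. The members were picked for this contrast, so nothing is read from the count. Glial markers also stood higher in cluster 4, where the 8 genes summed to 11.7 to 19.7 counts per 10000, against 7.45 to 11.2 in clusters 1 and 2. Without the 10% of neurons richest in glial counts, 2352 of 10497 genes were past the threshold, among them the same 3 members with the same signs. The part of glial transcripts in the member differences was not tested.

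Between clusters 2 and 1, Ddah1 was the 1 member past the threshold, at 0.70 (SE 0.0692), where 8.86% of genes were (5.27% higher and 3.59% lower). Ass1 was at 0.17, Slc7a1 at 0.15, Asl at 0.14 and Ddah2 at -0.08. For high-count cluster 3 against cluster 2, Ddah1 at 1.15 (SE 0.0551) and Ass1 at 0.33 (SE 0.0525) were past it as higher and Asl at -0.19 (SE 0.0585) as lower, where 10.5% of 10362 genes were (6.65% higher and 3.9% lower). Without the block only Ddah1 stayed past it. Asl also missed it without Set 2 and without Set 3, and Ass1 missed it when cells were thinned to 15000 counts. All 3 comparisons use the cells of cluster 2, so their values are not independent of each other.

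**Figure D2:**
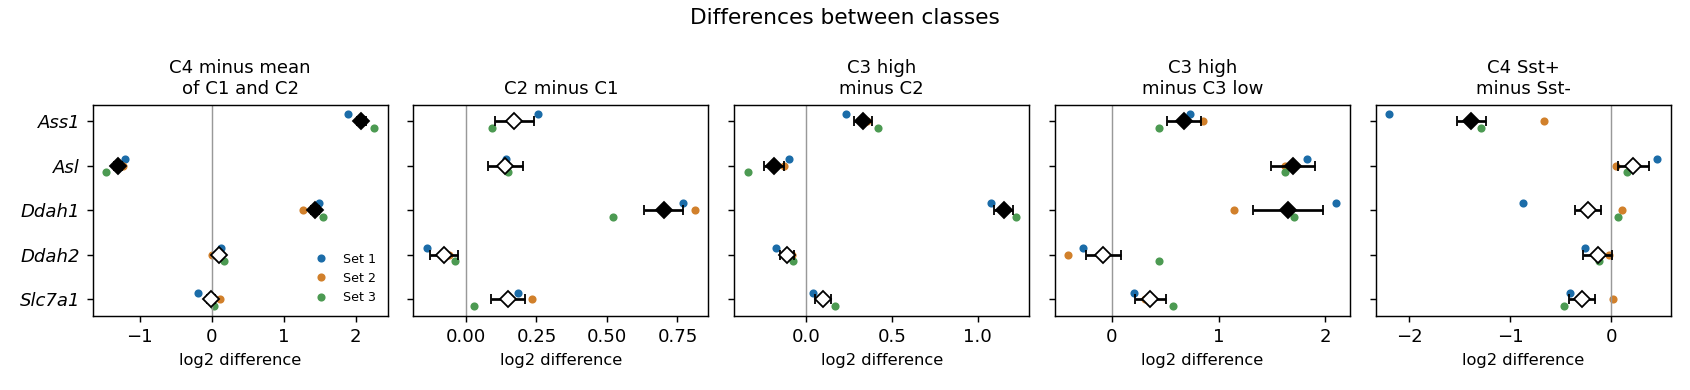
Log2 differences of the 5 tested members (x axis, a scale of its own in each panel) in 5 comparisons between classes. Diamonds are limma's estimates with SE bars, filled where the adjusted p is under 0.05, and coloured points are the 3 sets; in the split by Sst only Ass1 is filled, and its set points run from -2.20 to -0.66.

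Within cluster 4, Ass1 was lower in the Sst-positive cells. It had 0.778, 3.67 and 3.09 counts per 10000 in Sets 1, 2 and 3 of the Sst-positive cells and 7.28, 7.52 and 9.11 in those of the Sst-negative cells. The 2 groups of sets did not overlap, and the fold between them was 9.35, 2.05 and 2.95 within Sets 1, 2 and 3. Single cells did overlap: the lowest, median and highest cell had 0, 3.08 and 6.81 counts per 10000 among the 16 Sst-positive cells and 0.559, 8.80 and 15.4 among the 38 Sst-negative cells. Below 2 counts per 10000 lay 6 of 16 and 5 of 38 cells. Sst-negative cells with Ass1 at 1.80, 1.24, 4.27 and 3.55 had Th at 1.35, 2.17, 1.22 and 1.29, against a Sst-negative median of 30.0. The cells at 4.27 and 3.55 had some Sst, at 0.855 and 0.323. Those with Ass1 at 0.637 and 0.559 had Vip at 0.478 and 0.559, while the one at 1.84 had Th at 25.8 and Vip at 85.8. Low Ass1 thus also occurred in cells below the division. Set means of the Sst-positive cells were still above every set of cluster 2, by 1.32-fold, 6.92-fold and 4.29-fold within Sets 1, 2 and 3. In Set 1 this rests on 3 Sst-positive cells, at 0, 1.04 and 1.29 counts per 10000. Their mean of 0.778 was close to the highest set of cluster 2, at 0.720, so little is read from it.

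The log2 difference of Ass1, Sst-positive minus Sst-negative, was -1.38 (SE 0.142), and Ass1 was the 1 of 5 fitted members past limma's threshold, where 3.38% of 10431 genes were (1.61% higher and 1.77% lower). The members were picked with this split in view, so nothing is read from that count. The sets differed by -2.20, -0.66 and -1.28. The call rests on a spread borrowed from all genes: the residual SD of Ass1 itself was 0.546 and limma's moderated one 0.175. It was lost on summed counts scaled by size factors (-2.15) and with a pseudocount of 0.1 (-1.96). Set 1 had 3 Sst-positive cells with a median of 19195 counts, and without it the difference was -0.97.

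The other members were not past the threshold in the split by Sst. Asl was at 1.27, 0.715 and 0.866 counts per 10000 in the Sst-positive and 0.658, 0.656 and 0.696 in the Sst-negative sets, a log2 difference of 0.22 (SE 0.153). Ddah1 was at 3.82, 7.67 and 6.77 against 7.64, 7.09 and 6.49, with Set 1 alone lower (-0.87). Its log2 difference in the fit over all sets was -0.23. Ddah2 was at -0.13 and Slc7a1 at -0.28. The median of the 5 was -0.23, against -0.00 over all genes. Glial marker sums were 14.7 to 21.4 counts per 10000 in Sst-positive and 10.7 to 19.7 in Sst-negative sets, and their part in the split was not tested. Th was at 5.97 to 8.05 in the Sst-positive and 24.5 to 42.8 in the Sst-negative sets, and Vip at 19.1 to 49.0 against 57.1 to 70.8. Th and Vip were thus also lower in the Sst-positive cells, with no overlap of the sets. Dbh, which makes noradrenaline from dopamine, went the other way without overlap, at 8.15 to 11.1 against 5.16 to 6.19, and Slc6a2 overlapped at 1.23 to 3.12 against 0.876 to 2.32.

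**Figure D3:**
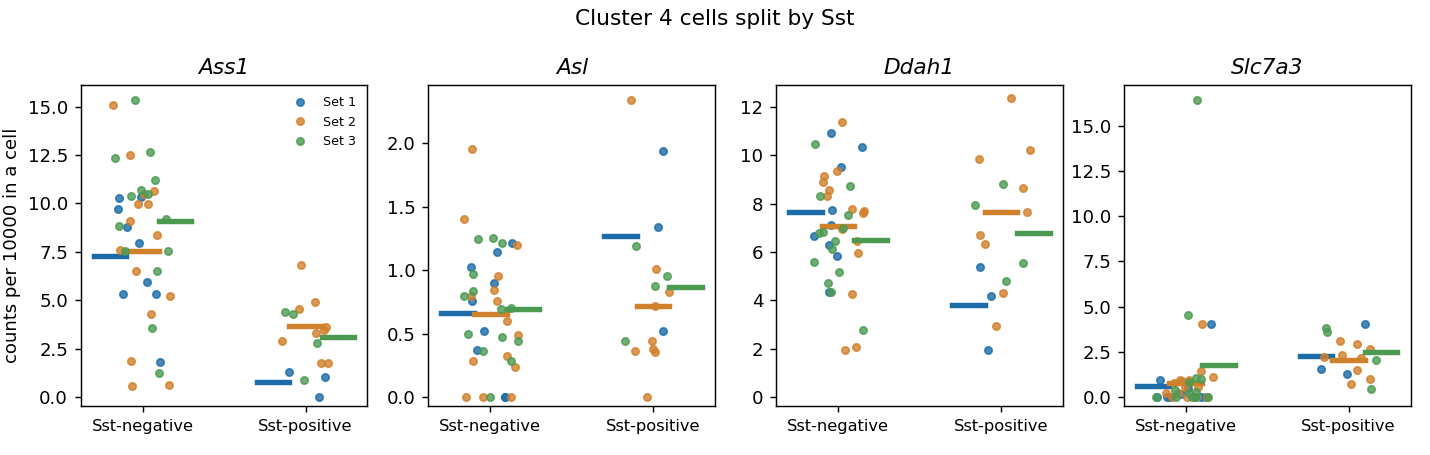
Counts per 10000 in each cell of cluster 4 (y axis, linear) for Ass1, Asl, Ddah1 and the arginine transporter Slc7a3, with cells divided by Sst. Points are cells coloured by set and thick lines are set means; Ass1 means lie at 0.778 to 3.67 in Sst-positive and 7.28 to 9.11 in Sst-negative cells, and 1 Sst-negative cell of Set 3 stands far above the rest for Slc7a3.

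In the division of cluster 3, Asl, Ddah1 and Ass1 were higher in the high-count cells. Their log2 differences, high-count minus low-count, were 1.69 (SE 0.207) for Asl, 1.65 (SE 0.326) for Ddah1 and 0.68 (SE 0.161) for Ass1. These 3 of 5 fitted members were past limma's threshold, where 31.9% of 10947 genes were past the threshold (28.4% higher and 3.55% lower), and the median of the 5 was 0.68 against 0.14 over all genes. Ddah2 was at -0.08 and Slc7a1 at 0.36. This division was in view when the members were picked, and nothing is read from the count. With all cells thinned to 1000 counts, limma called 0 of 6 tested members, 2 of them with an unadjusted p under 0.05, and 76 genes in all. Without Set 1 only Asl stayed past the threshold, and Ass1 also missed it without Set 2 and with size factors. The low-count cells had reads of all 8 endothelial markers, with set sums of 9.33 to 34.1 counts per 10000 against 0.612 to 1.88 in the other classes, and fibroblast sums of 0.373 to 44.1. Their noradrenergic marker sums were 18.2 to 68.5. The part of these markers and of depth in the member differences was not tested.

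Other genes of the pathway were taken from 7 lists of 76 genes, of which 69 were in the table. The clusters were defined on these same cells. Calls of list genes between clusters, here and below, are therefore given as a description and not as a test. In cluster 4 against the mean of clusters 1 and 2, 11 of 60 tested genes were past the threshold as higher and 15 as lower, with a median of -0.04, where 12.4% and 12.3% of all genes were. Among the makers of tetrahydrobiopterin, a cofactor of nitric oxide synthases and of tyrosine hydroxylase, 3 of 8 were lower and 0 higher. Gch1, the first enzyme of that synthesis, was at 0.942, 1.60 and 1.01 counts per 10000 in the sets of cluster 4 against 4.73, 5.54 and 4.94 in cluster 1 and 4.55, 5.33 and 4.42 in cluster 2, without overlap. Its log2 difference was -1.47 (SE 0.0449), and Qdpr, which regenerates the cofactor, was at -0.46. Of the 6 tested genes on the list of arginine synthesis and citrulline recycling, 2 were higher and 0 lower. Got1, the cytosolic aspartate aminotransferase, had 3.303, 2.88 and 3.55 in cluster 4 against 1.17 to 1.97 over the sets of clusters 1 and 2 (0.76, SE 0.0434).

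On the list of arginine use, which extends to ornithine, polyamines and creatine, 4 of 18 tested genes were higher and 4 lower in cluster 4. For this and the lists below, the shares over all genes were 12.4% higher and 12.3% lower. Azin1, which relieves ornithine decarboxylase of its antizyme, was at 0.44 and Sat1, a spermidine acetyltransferase, at 0.43. Synthases and their partners gave 2 higher and 3 lower of 11, and arginine methylation 0 higher and 2 lower of 6. In the nitric oxide receptor and cGMP list, 2 of 7 were higher, among them the phosphodiesterase Pde1a at 0.37, and 2 lower. Nos3, the endothelial synthase, stood at 0.0939 to 0.135 counts per 10000 in the sets of cluster 4 and at 0.0380 to 0.0877 in those of clusters 1 and 2. Cluster 4 held only 20 Nos3 reads, in 25.9% of its cells, against 25.4% of cells with a read in cluster 2. The sets of high-count cluster 3, at 0.0637 to 0.127, overlapped with those of cluster 4. Nos2 was not in the table under that symbol and was not analysed here.

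**Figure D4:**
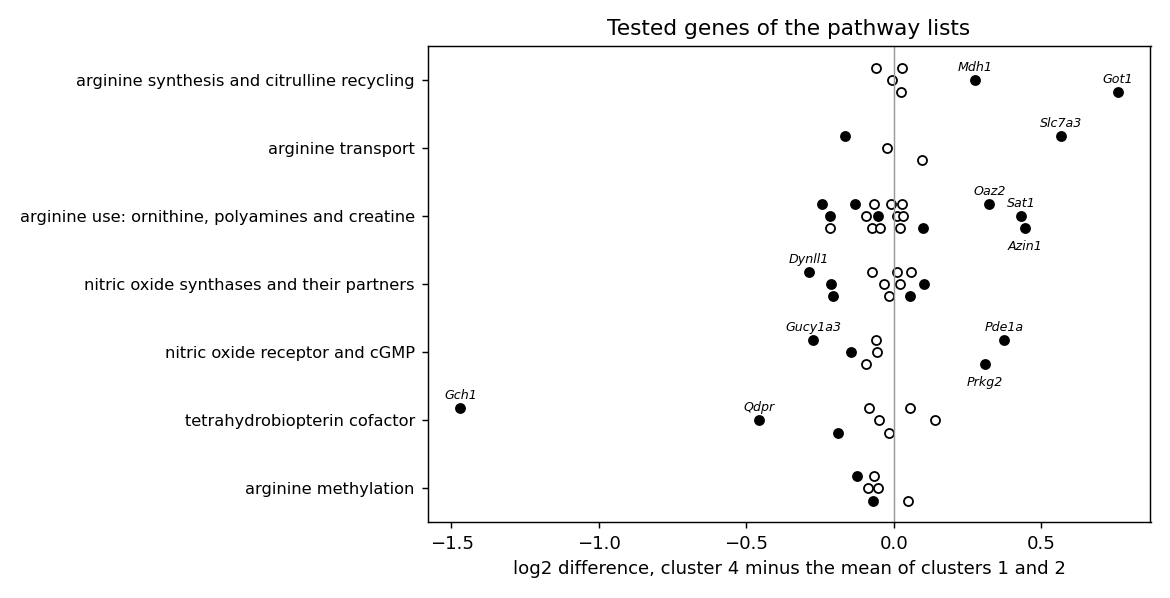
Log2 differences between cluster 4 and the mean of clusters 1 and 2 (x axis) for the 60 tested genes of the 7 pathway lists (rows). Points are genes, filled where limma's adjusted p is under 0.05, with names where the difference is beyond 0.25; Gch1 lies lowest at -1.47 and Got1 highest at 0.76.

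A second arginine transporter and the other arginase differed in level between the classes. Slc7a3, the cationic transporter CAT-3, had 0.0771, 0.0634 and 0.198 counts per 10000 in the sets of cluster 1, 0.550, 0.352 and 0.675 in cluster 2 and 1.04, 1.26 and 1.92 in cluster 4. The sets of the 3 clusters did not overlap, and cluster 4 was the highest (log2 difference to clusters 1 and 2 of 0.57, SE 0.0575). Of the 279 Slc7a3 reads in cluster 4, 53 came from 1 cell. The median cell was at 2.19 in Sst-positive and 0.258 in Sst-negative cells, against 0.433 in cluster 2. Set 1 of the Sst-negative cells, at 0.628, lay below the highest set of cluster 2. Arg1, the cytosolic arginase, had 1.98, 1.58 and 2.91 in cluster 1, against 0.264, 0.395 and 0.365 in cluster 2 and 0.641, 0.818 and 0.424 in cluster 4. Cluster 1 thus stood above both (cluster 2 minus cluster 1 of -0.83, SE 0.105). In the comparison of clusters 2 and 1, 10 of 60 tested pathway genes were higher and 4 lower, where 5.27% and 3.59% of all genes were. In high-count cluster 3 against cluster 2, 6 of 58 were higher and 8 lower (6.65% and 3.9% of all genes). There Gucy1a3, a subunit of the guanylate cyclase that nitric oxide activates, averaged 0.494 ± 0.0902 in high-count cluster 3 and 1.39 ± 0.210 in cluster 2 (SD, n = 3; log2 difference -0.66, SE 0.0529). Between the parts of cluster 3, 28 of 57 were higher in high-count cells and 2 lower (28.4% and 3.55% of all genes).

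The split by Sst called 4 of 54 tested pathway genes higher in Sst-positive cells and 2 lower, where 1.61% and 1.77% of all genes were. Slc7a3 had 2.29, 2.06 and 2.47 counts per 10000 in Sst-positive and 0.628, 0.776 and 1.77 in Sst-negative sets. All Sst-positive sets were above all Sst-negative ones, and the mean of Set 3 in Sst-negative cells includes 1 cell with 53 reads. That cell had Th at 2.17. Other Sst-negative cells low in Th, at 1.35, 1.22 and 1.29, had Slc7a3 at 4.05, 4.03 and 4.52. Slc7a3 rose by 0.98 (SE 0.159, adjusted p 1.09e-07 in limma), and passed under all 12 alternatives run. Arg1 rose by 0.65 (SE 0.144, adjusted p 0.000402), with 1.31, 1.69 and 0.640 in Sst-positive and 0.419, 0.292 and 0.363 in Sst-negative sets, which did not overlap. Its call was lost without Set 2 (adjusted p 0.188) and with the division at 3 counts per 10000 of Sst (0.124). The lists were chosen with earlier results of these data known, and limma borrows spread from all genes. These adjusted p-values are therefore given as a description and not as a test.

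Of the cGMP genes, Pde1a was higher in Sst-positive cells by 0.62 (adjusted p 0.000405 in limma) and lost its call without Set 2. Gucy1a3 fell by 0.68 (adjusted p 0.000538) and lost its call without Set 3 and after thinning. Prkg2, a cGMP-dependent kinase, fell by 0.49 (adjusted p 0.00153) and lost its call without Set 2 or Set 3. The adjusted p-values of these 3 genes are likewise a description. For each of them, and for Slc7a3 and Arg1, an exact sign permutation test over 3 sets cannot give a p below 0.25.

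**Figure D5:**
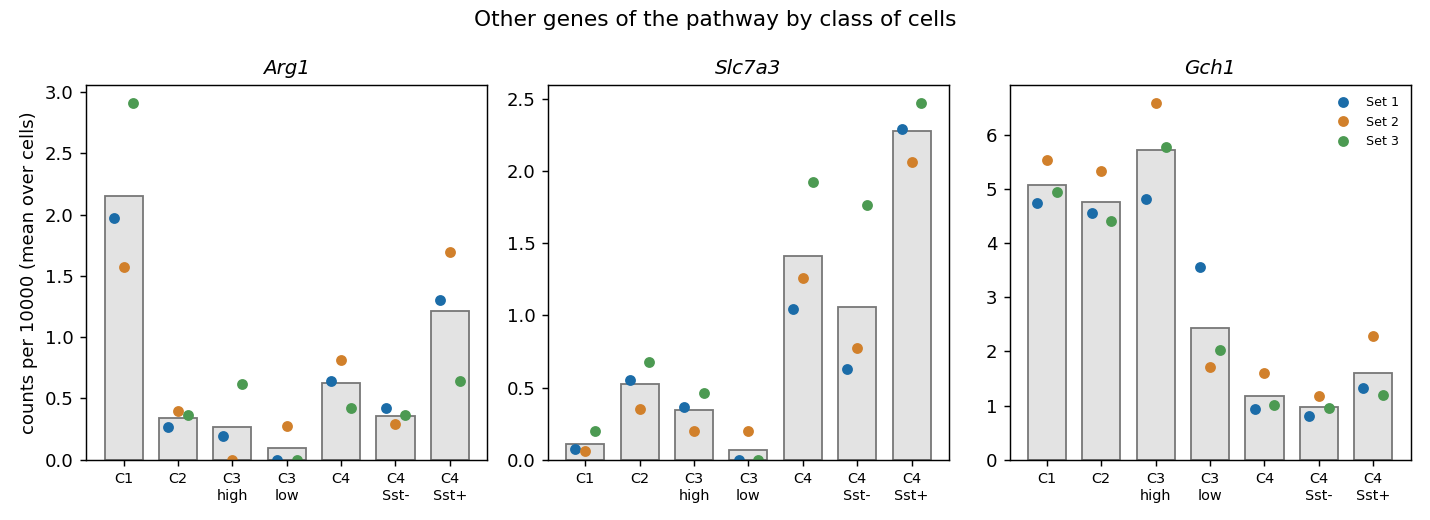
Mean counts per 10000 (y axis, linear, a scale of its own in each panel) of Arg1, Slc7a3 and Gch1 in clusters 1 and 2, the 2 parts of cluster 3, and cluster 4 whole and divided by Sst. Points are the 3 sets and bars their mean; Arg1 is highest in cluster 1, Slc7a3 in Sst-positive cells, and Gch1 is lower in cluster 4 than in clusters 1 and 2.

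The genes most like each member were ranked by Pearson r over the 12 means of log level, among 10525 genes. For Ass1 they were Tmem176b (0.986) and Tmem176a (0.985), a pair of neighbouring membrane protein genes, Chn2 (0.984), the cell cycle inhibitor Cdkn1a (0.979) and Homer2 (0.977). For Asl they were the copper transporter Slc31a1 (0.986), Gnb3 (0.979), Sh3bp1 (0.970), and Ddc (0.957) and Th (0.956), which make catecholamines. For Ddah1 they included Eif1a (0.945), the receptor Ret (0.942), Ltbr (0.937) and Ebf1 (0.937). The points share cells and sets and fall mostly by class.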

How the data were processed

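The deposited table gives for each gene and cell ln(1 + counts per 10000), a natural log, per the values. Whole counts, within 0.001, were recovered for 100% of non-zero values. The deposited annotation gives the authors' cluster number of each cell, a label without a unit. Per the labels' protocols, each plate took sorted cells, its cDNA was pooled and 3' ends were read. Reads were aligned to GRCm38 and processed with STAR 2.5.3a, featureCounts 1.5.3, SAMtools 1.4.1 and Seurat, per the submitters' processing notes. How clusters were made and whether doublets were removed are not given in the sources used here, and no doublet caller was run.

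Levels are means over cells, then over 3 sets. The test was limma 3.58.1 (R 4.3.3, trend and robust, two-sided) on log2(1 + counts per 10000), averaged over the cells of a set and class, for genes with a mean of at least 0.05 counts per 10000, with Benjamini-Hochberg adjustment at 0.05. A set pools the same 2 mice in every class and was kept as a block. Deviations of the same set correlated between clusters 1, 2 and 4 and high-count cluster 3 at 0.483 to 0.866. The correlation was weaker within the divided clusters. It was 0.169 to 0.371 between Sst-negative and Sst-positive cells, and 0.176 to 0.209 between the parts of cluster 3. Spread between sets includes technical variation. The script was checked on simulated data. Tables and figures were made in Python 3.11.15 (scipy 1.17.1, matplotlib 3.10.9, numpy 2.4.6, pandas 2.3.3).

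Members, lists and comparisons were chosen with earlier results of these data known. Named are the 7 members, up to 3 genes per list and comparison with the largest difference past the threshold, and the 5 genes most like each member with a level of 1 or more; Nos3 was added as another synthase, and some genes that the rule names are not reported here. Gucy1a1 and Gucy1b1 were matched by their older symbols. Alternatives were no block, each set left out, size factors, voom, another pseudocount, other filters, thinning, other divisions and leaving out glia-rich neurons.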

Additional observations from a re-analysis of the deposited data

How the results depend on the processing

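In cluster 4 against clusters 1 and 2, Ass1, Ddah1 and Asl kept their direction and stayed past the threshold under all 11 alternatives, at 1.99 to 3.68, 1.38 to 2.11 and -2.27 to -1.22. The 9 values that changed sign all belonged to members not past the threshold: Slc7a1 in cluster 4 (-0.0756 to 0.0732 with a set left out, 0.0932 with voom, 0.00758 without glia-rich neurons), Ddah2 between the parts of cluster 3 (-0.339 to 0.0849 with a set left out, 0.672 with a pseudocount of 0.1, 0.0216 with the division at 5000 counts), Slc7a1 there (-0.459 with voom) and Ddah1 in the split by Sst (-0.401 to 0.0896 with a set left out). The cause was not tested.

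The number of members past the threshold between clusters 2 and 1 went from 1 to 2 with size factors, 5 with voom and 2 with a pseudocount of 0.1. Of all 10564 genes, 836, 2466 and 1007 were past it in these settings, against 936 in the main fit. For high-count cluster 3 against cluster 2 it went from 3 to 1 without the block and 1 without a filter, and to 2 to 3 with a set left out. There 64 of 10362 genes were past it without the block and 112 of 19151 without a filter, against 1093 in the main fit. Between the parts of cluster 3 it went from 3 to 0 with thinning, 2 with size factors, 4 with voom or a pseudocount of 0.1, and to 1 to 3 with a set left out. There 76 of 10535 genes were past it with thinning. Of 10947 genes, 1277 were past it with size factors, 3091 with voom and 7842 with the pseudocount, against 3497 in the main fit. In cluster 4 it went from 3 to 4 with a pseudocount of 0.1, where 2551 of 10564 genes were past it. In the split by Sst it went from 1 to 0 with a pseudocount of 0.1, where 1 member had an unadjusted p under 0.05 in limma, and was 1 with voom and with each set left out. With size factors the 1 member was Slc7a1 (-1.95) in place of Ass1. Of all 10431 genes, 325 were past it with the pseudocount, 361 with voom and 309 with size factors.

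Counts of all genes past the threshold fell without the set as a block: from 2608 to 1118 for cluster 4, 936 to 282 for clusters 2 and 1, 1093 to 64 for high-count cluster 3 against cluster 2, and 353 to 164 for the split by Sst. In the same order of the last 3, thinning gave 501, 409 and 192, and leaving out a set 423 to 561, 575 to 920 and 182 to 323. Voom gave 2466 between clusters 2 and 1, a filter at 0.5 gave 1328 for cluster 4, and no filter gave 112 for high-count cluster 3 against cluster 2 and 219 for the split by Sst. A pseudocount of 0.1 gave 1817 for high-count cluster 3 against cluster 2. Between the parts of cluster 3 the 3497 genes became 1276 to 3519 with a set left out, 1277 with size factors, 7842 with a pseudocount of 0.1, 2057 with a filter at 0.5 and 76 with thinning.

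Scaling moved the split of higher and lower genes from 557 and 379 to 406 and 430 (size factors, clusters 2 and 1), and from 689 and 404 to 445 and 436 (size factors) and 1494 and 323 (pseudocount of 0.1) for high-count cluster 3 against cluster 2. Between the parts of cluster 3 it went from 3108 and 389 to 872 and 405 (size factors) and 576 and 2515 (voom). The median of all genes there shifted by 0.48 with size factors, -0.59 with voom and 0.90 with the pseudocount, in high-count cluster 3 against cluster 2 by 0.13 with the pseudocount, and in the split by Sst by -0.16 with size factors and 0.12 with voom. Depth limits the low-count cells of cluster 3, whose Ass1 and Asl levels rest on 4 and 6 reads.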

Other observations

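Within cluster 4, Ass1 varied from cell to cell together with other genes of these neurons. Over 53 cells thinned to 15000 counts, Spearman's rho of Ass1 was 0.64 with Th and 0.46 with Vip. In the 37 Sst-negative cells it was 0.38 with Th and 0.04 with Vip, and in the 16 Sst-positive cells -0.12 and 0.79. Ddah1 and Asl had a rho of -0.29 in cluster 4 and -0.18 in 367 cells of cluster 1. These are descriptions of cells that share sets, plates and thinned depth.

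Levels also varied between plates of a set. Over the 4 plates of Set 2, Ddah2 ran from 0.267 to 0.568 counts per 10000 in cluster 2 and Slc7a1 from 0.318 to 0.592 in cluster 1. Over all 11 plates Ass1 ran from 0.325 to 0.669 counts per 10000 in cluster 1 and from 0.466 to 0.809 in cluster 2, and Ddah1 from 1.06 to 2.12 and from 2.19 to 4.13.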
